A study of Mus musculus with 7 samples.

Results

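The IL-1 and IL-6 pathway genes examined here are 10 genes chosen by name for their place in these cytokine pathways: the ligands Il1a, Il1b and Il6, the antagonist Il1rn, the receptors Il1r1, Il6ra and Il6st, and the feedback or response genes Socs3, Nfkbia and Ptgs2. They were found through the transcript accession of each probe, and each was measured by 1 probe, so 10 of the 21367 genes named on the array are described. These genes, and the related lists below, were chosen with earlier results of these data known. The paper had already listed Il1b and Il6 as down-regulated. Counts of these genes and lists are therefore descriptions and not tests. Total RNA of the nasal cavity, dissected with septum and turbinates, came from female BALB/c mice, with an age of 6 weeks in the labels of all arrays. Whether this is the age at the start of exposure or at collection is not settled here. If it is the age at the start, age at collection also differed between the exposure times. DEP mice inhaled nebulized diesel exhaust particles (DEPs) suspended in saline, at 100 ug/m3 for 1 hour a day on 5 days a week, and the control RNA came from mice given saline under the same conditions, as the study's methods describe it. Exposure lasted 4 weeks (4 arrays, all on 1 slide) or 8 weeks (3 arrays, all on the other slide). Every array carried DEP RNA in Cy5 against control RNA in Cy3, so a negative log2 ratio means a lower signal in DEP, and because the dyes were never swapped, dye and treatment cannot be told apart within 1 exposure time. Whether each array's RNA came from 1 mouse or a pool is not given in the sources used here, and the p-values measure the spread between these arrays.

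Interleukin 1 signals through Il1r1 and the adaptor MyD88 to the kinases that free NF-kB from its inhibitor, and Il1rn occupies the same receptor without signalling. Interleukin 6 binds Il6ra and then Il6st (gp130), a signal chain shared by a family of cytokines, which activates JAK kinases and STAT3. Both pathways induce their own brakes: Nfkbia (IkB alpha) returns NF-kB to the cytoplasm, and Socs3 shuts down signalling at gp130. Ptgs2 (COX-2), the inducible enzyme of prostaglandin synthesis, is a classical IL-1 target. In airway and olfactory mucosa these cytokines are made by epithelial, stromal and immune cells after injury or infection.

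The promoters of the 4 genes below are shown because they drive the 2 ligands and the 2 feedback genes whose ratios moved most at 4 weeks, and each held a match of a motif tied to inflammatory signalling or of a TATA box. Each holds the 250 bases before the RefSeq start on build GRCm38.p6, read 5' to 3' on the gene's strand, with motif matches in capitals. The Il6 promoter, chr5:30012864-30013113 on the + strand, held an NF-kB consensus match from 44 to 35 bases before the start and an AP-1 match from 249 to 243 bases before it. The Il1b window, chr2:129371140-129371389 on the - strand, held a TATAAA match from 31 to 26 bases before the start. The Socs3 window, chr11:117969367-117969616 on the - strand, held a STAT match from 154 to 146 bases before the start, and the Nfkbia window, chr12:55492648-55492897 on the - strand, an NF-kB consensus match from 29 to 20 bases before it, found on the opposite strand.
Il6: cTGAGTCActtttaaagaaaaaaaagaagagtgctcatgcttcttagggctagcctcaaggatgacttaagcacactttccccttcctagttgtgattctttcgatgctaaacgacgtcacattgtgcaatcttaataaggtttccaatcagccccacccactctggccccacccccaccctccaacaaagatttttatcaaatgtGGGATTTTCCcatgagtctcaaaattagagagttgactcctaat
Il1b: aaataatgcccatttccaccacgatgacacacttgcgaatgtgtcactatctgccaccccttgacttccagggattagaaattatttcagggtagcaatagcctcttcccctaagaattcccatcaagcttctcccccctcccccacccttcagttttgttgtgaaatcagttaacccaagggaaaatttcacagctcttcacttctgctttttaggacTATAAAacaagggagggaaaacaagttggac
Socs3: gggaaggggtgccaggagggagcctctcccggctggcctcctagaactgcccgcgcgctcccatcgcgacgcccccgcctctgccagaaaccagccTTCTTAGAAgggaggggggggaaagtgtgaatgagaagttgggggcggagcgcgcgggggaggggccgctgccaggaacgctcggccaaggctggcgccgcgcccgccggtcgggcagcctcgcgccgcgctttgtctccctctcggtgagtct
Nfkbia: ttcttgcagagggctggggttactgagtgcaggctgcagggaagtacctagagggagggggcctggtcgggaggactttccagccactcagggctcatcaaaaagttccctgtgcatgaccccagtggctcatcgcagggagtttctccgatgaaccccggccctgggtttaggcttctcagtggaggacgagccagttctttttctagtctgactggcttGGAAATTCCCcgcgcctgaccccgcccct
The search covered both strands for the NF-kB consensus, TTCNNNGAA (STAT), TGANTCA (AP-1), TGACGTCA (CRE) and TATAAA, none of which overlapped another in these 4 windows. Of 32841 RefSeq promoter windows of this length, 7.25% held the NF-kB consensus, 7.02% the STAT motif, 6.75% the AP-1 motif, 1.55% the CRE and 12.4% TATAAA. All 10 genes had a window, with 13 start sites in all. The windows of Il6ra, Il6st and Ptgs2 held none of these letters. Among the windows not printed, Il1a held an AP-1 and a TATAAA match. Start site 1 of Il1rn held an AP-1 match, and start site 2 of Il1r1 an NF-kB consensus match. A match describes the letters in this window only. The 4 printed windows were picked in part for holding a match, so their matches cannot be weighed against the shares over all windows.

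On 7 arrays, between 16818 and 26920 probes a channel were well above background and 0 spots were saturated. Log2 ratios over the tested probes correlated at 0.44 to 0.49 between arrays of the 4-week slide, at 0.71 to 0.88 between arrays of the 8-week slide and at 0.09 to 0.29 across slides. Of 39429 probes, 25123 were tested, namely those well above background in at least 1 channel on at least 3 arrays. Markers of mature olfactory neurons, sustentacular cells, ciliated cells, epithelium and fibroblasts were detected in this whole tissue, in which fewer cells of a type and less RNA per cell cannot be told apart. Since Cy5 and Cy3 levels were set per array, all ratios are relative to the other probes on it.

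Of the 10 genes, 7 passed the filter on dim probes. The probes for Il1a, Il1rn and Ptgs2 did not. Il1a, the IL-1 form kept in cells until they are damaged, was well above background only in the control channel of 4-week replicate 4 and in both channels of 8-week replicate 2. Il1rn was not well above background in either channel of any array, with a background-subtracted median signal of 4.5 to 15.5 in DEP and 20 to 21 in control at 4 weeks, and of 3 to 11 in DEP and 16 to 28 in control at 8 weeks. Ptgs2, printed on 10 spots per array, was well above background only in the DEP channel of 4-week replicate 2. These 3 genes enter no comparison. The plot of log2 ratios by array shows them as open symbols where neither channel was well above background.

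**Figure D1:**
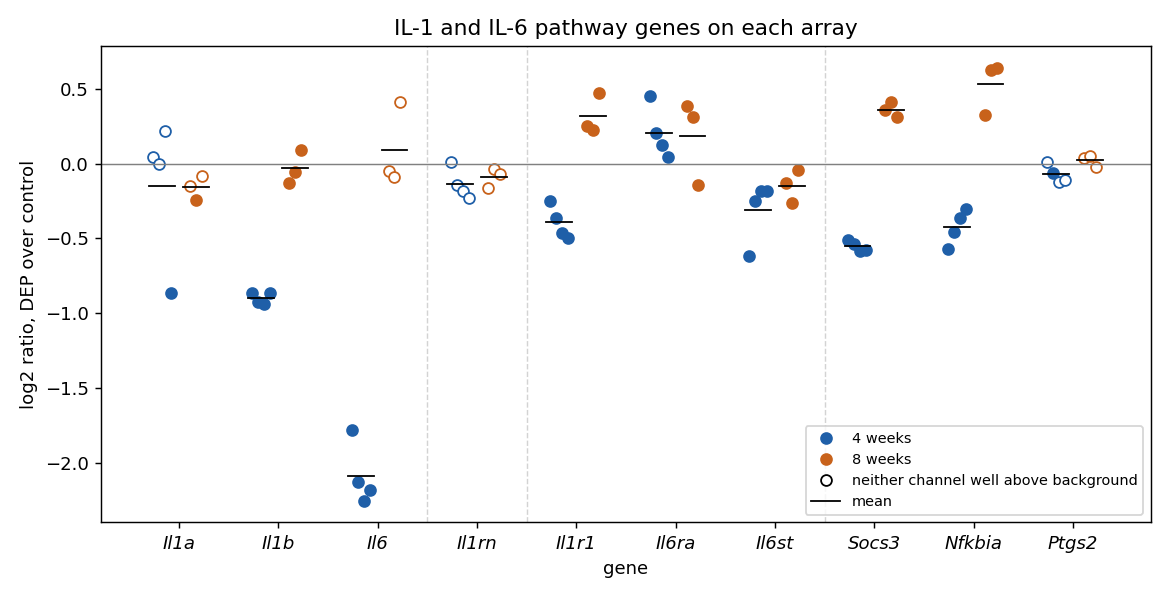
Log2 ratio of DEP over control (y axis) for each of the 10 genes (x axis), 1 point per array, in blue for the 4 arrays of 4 weeks and orange for the 3 arrays of 8 weeks, with a line at the mean. Open points mark arrays where neither channel was well above background. Il6 lies between -2.26 and -1.78 on the 4-week arrays, and Il1r1, Socs3 and Nfkbia lie below 0 on every 4-week array and above 0 on every 8-week array.

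After 4 weeks of DEP, 6 of the 7 tested genes were lower in DEP and 0 were higher (limma, adjusted p at most 0.05), which is 2 of 2 ligands, 2 of 3 receptors and 2 of 2 feedback genes. Their median log2 ratio was -0.43, against -0.003 over all probes tested. Over all tested probes, 37.2% passed at 4 weeks, 16.5% as lower and 20.7% as higher. By the stricter rule of the study's methods, p at most 0.01 and a change of at least 2-fold, 1.13% of all probes passed, 0.342% as lower, and among the 7 genes only Il6 did. Il1b fell short of 2-fold at -0.90, where an offset of 50 had been added to the signals. Its mean was past 2-fold with an offset of 10 (-1.27, limma adjusted p = 3.22e-05) and with the scanner software's processed signals (-1.61, adjusted p = 6.76e-05). Median centring gave -0.94 and the background fit on all spots -0.69. The paper lists Il1b and Il6 as down-regulated, with qRT-PCR results in a similar direction.

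Il6, the ligand of the IL-6 receptor, had the lowest ratio of the 10 genes. On the 4 arrays its log2 ratio was -1.78, -2.13, -2.26 and -2.18. The background-subtracted median signal was 115.5, 106, 95.5 and 80 in DEP against 717, 665.5, 767.5 and 717 in control. These signals are not normalized between the dyes. Il1b signals at 8 weeks were also apart, at 31.35 to 38.2 in DEP and 51.3 to 58.35 in control, at a mean log2 ratio of -0.03. After normalization, the log2 levels of Il6 at 4 weeks were 7.21 to 7.60 in DEP and 9.34 to 9.53 in control. The mean log2 ratio was -2.09 (SE 0.104, n = 4 arrays, 95% confidence interval -2.33 to -1.85, limma adjusted p = 1.03e-05), a 4.25-fold lower signal in DEP. It was the 12th lowest mean ratio among the 25123 tested probes.

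Il1b, the secreted IL-1 that caspase 1 matures, was read from 8 to 10 usable spots of 10 on each array. Its log2 ratio at 4 weeks was -0.86, -0.93, -0.94 and -0.87. Its signals before normalization were 33.25 to 48.5 in DEP and 147.4 to 168.2 in control. Normalized log2 levels were 6.58 to 6.81 in DEP and 7.44 to 7.68 in control. Single spots of 1 array had a standard deviation of 0.086 to 0.176 in the log2 ratio, and the 4 array means one of 0.04. Mean and SE were -0.90 and 0.0502 (n = 4 arrays, limma adjusted p = 1.62e-05), or 1.87-fold lower in DEP. The DEP channel of replicate 1 was not well above background. From the scanner software's own processed signals, with no added offset, the mean was -1.61.

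The receptors moved less. Il1r1, the signalling receptor of IL-1, had log2 ratios of -0.25, -0.36, -0.47 and -0.50 at 4 weeks, and was lower in DEP by a mean of -0.39 (SE 0.0623, n = 4 arrays, limma adjusted p = 0.00247). Il6st, the shared signal chain gp130, had log2 ratios of -0.62, -0.25, -0.18 and -0.18. Replicate 1 lay apart from the other arrays, which were close together. Its mean of -0.31 (SE 0.081, n = 4 arrays) passed at a limma adjusted p of 0.0205 and became -0.21 without replicate 1 (adjusted p = 0.0304). Il6ra, the chain that binds IL-6 itself, went the other way on every array, at 0.45, 0.21, 0.12 and 0.05, and its mean of 0.21 did not pass (SE 0.0993, n = 4 arrays, 95% confidence interval -0.02 to 0.44, limma adjusted p = 0.138). The processed signals gave 0.29 for Il6ra, with an adjusted p of 0.0437.

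Both feedback genes were lower. Socs3, the inhibitor that IL-6 signalling induces, had log2 ratios of -0.51, -0.54, -0.58 and -0.58, the narrowest spread among the receptor and feedback genes. Its mean was -0.55 (SE 0.0421, n = 4 arrays, limma adjusted p = 7.61e-05), 1.47-fold lower in DEP. Nfkbia, the NF-kB inhibitor, was at -0.57, -0.46, -0.37 and -0.31. Its mean was -0.43 (SE 0.0698, n = 4 arrays, limma adjusted p = 0.00289). Before normalization between the dyes, Socs3 signals were 478 to 677.5 in DEP and 893 to 1006 in control, and those of Nfkbia 1608 to 2417 and 3019 to 3590. Normalized log2 levels of Socs3 were 9.12 to 9.31 in DEP and 9.70 to 9.84 in control. For Nfkbia the normalized levels were 10.77 to 11.25 in DEP and 11.34 to 11.62 in control. The methods' t-test, which sets the 2 channels against each other as separate samples, left Il6st at an adjusted p of 0.136 and Nfkbia at 0.0631, and a fit of the 4-week arrays alone left Il6st at 0.051.

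After 8 weeks of DEP, of the 6 genes with a ratio, 3 were higher in DEP, 0 were lower and 3 did not pass, with a median of 0.25 against -0.001 over all probes. Over all tested probes 36.4% passed at 8 weeks, 17.5% as lower and 18.9% as higher. By p at most 0.01 and at least 2-fold, 2.67% of all probes passed, 0.84% as lower, and 0 of the 7 genes did. The genes that passed were Il1r1, Socs3 and Nfkbia.

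Neither ligand was called lower at 8 weeks. The Il6 probe was not well above background in either channel of the 3 arrays, with background-subtracted signals of 4, -4 and 17 in DEP and 11, 4 and 7 in control, so no ratio is given. Il1b was well above background in both channels of all 3 arrays. Its log2 ratio was -0.13, -0.05 and 0.10, spread around 0, and the mean of -0.03 did not pass (SE 0.0579, n = 3 arrays, 95% confidence interval -0.17 to 0.10, limma adjusted p = 0.731).

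Il1r1 was higher in DEP at 8 weeks, with log2 ratios of 0.26, 0.23 and 0.47 and a mean of 0.32 (SE 0.0719, n = 3 arrays, limma adjusted p = 0.0113). Replicate 3 was the highest, and without it the mean was 0.24 and did not pass (adjusted p = 0.0605). From the processed signals the mean was 0.65. The methods' t-test gave an adjusted p of 0.0687 for Il1r1. Il6ra was at 0.38, 0.31 and -0.14, above 0 on the first pair of arrays and below it on replicate 3. Its mean of 0.19 did not pass (SE 0.115, n = 3 arrays, limma adjusted p = 0.249), and without replicate 3 the mean was 0.35 (adjusted p = 0.0478). Il6st, at -0.13, -0.26 and -0.05, lay below 0 on all 3 arrays, and its mean of -0.15 did not pass (SE 0.0936, n = 3 arrays, limma adjusted p = 0.262).

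The feedback genes were both higher in DEP at 8 weeks. Socs3 had log2 ratios of 0.36, 0.41 and 0.31. Its mean was 0.36 (SE 0.0486, n = 3 arrays, limma adjusted p = 0.00108), or 1.29-fold higher. Nfkbia, at 0.33, 0.63 and 0.64, was lowest on replicate 1 and above 0 on all 3 arrays, with a mean of 0.53 (SE 0.0806, n = 3 arrays, limma adjusted p = 0.00191), or 1.45-fold higher. With each array centred on its median in place of loess, the means fell to 0.13 for Socs3 (adjusted p = 0.159) and 0.21 for Nfkbia (adjusted p = 0.0669), both no longer passing, while Il6st passed as lower at -0.39 (adjusted p = 0.0188). The methods' t-test left Nfkbia at an adjusted p of 0.134 and, of the 3 genes, Socs3 alone passing.

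The change between the exposure times was tested as its own contrast, in which a constant dye effect cancels and a slide effect does not. Of the 6 genes with a ratio at both times, 4 had a higher ratio at 8 than at 4 weeks, 0 had a lower one and 2 did not pass, with a median over the 6 of 0.79 against 0.012 over all probes. Over all tested probes 30.2% passed this contrast, 14.1% as higher and 16.1% as lower. By p at most 0.01 and at least 2-fold, 2.81% passed, 1.11% as lower. Il6 also passed in the fit, but with both channels at background at 8 weeks the size of its change has no measured end point.

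The mean log2 difference for Nfkbia was 0.96 (SE 0.107, 4 and 3 arrays, limma adjusted p = 0.000672). For Socs3 the difference was 0.91 (SE 0.0643, limma adjusted p = 8.83e-05). Il1b went from clearly below 0 to near it, a difference of 0.87 (SE 0.0766, limma adjusted p = 0.000233), and Il1r1 from below to above 0, a difference of 0.71 (SE 0.0951, limma adjusted p = 0.00153). In these 4 genes the lowest ratio at 8 weeks was higher than the highest ratio at 4 weeks. The share of all tested probes that separated in this way is not given here, so the separation is not particular to these genes. The difference for Il6st was 0.16 with a 95% confidence interval of -0.13 to 0.45 (limma adjusted p = 0.36), and for Il6ra it was -0.02 with an interval of -0.38 to 0.33 (limma adjusted p = 0.923). Both intervals hold 0 and also hold changes larger than these genes' own 4-week ratios.

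**Figure D2:**
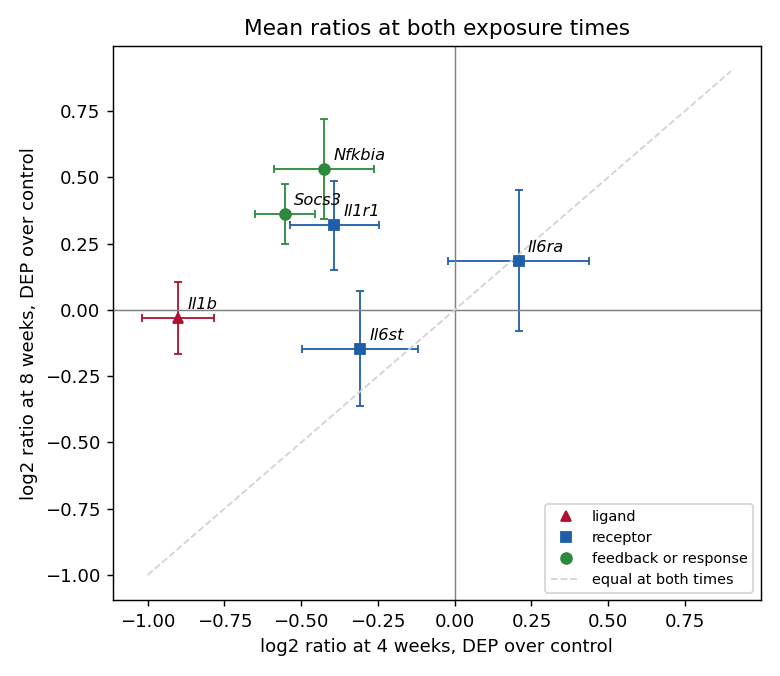
Mean log2 ratio of DEP over control at 4 weeks (x axis, 4 arrays) against 8 weeks (y axis, 3 arrays) for the 6 genes with a ratio at both times, with 95% confidence intervals as bars, by role. The dashed line marks equal ratios. Socs3, Nfkbia and Il1r1 lie in the upper left, at -0.55 and 0.36, -0.43 and 0.53, and -0.39 and 0.32, whereas the intervals of Il6ra and Il6st reach the dashed line.

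The level of each gene in each channel is given as a log2 intensity after loess and quantile scaling across arrays. Each exposure time lay on its own slide, so time cannot be told apart from slide in these levels, and they were not tested between slides. Whether the control mice of both slides were kept for the same time is not given in the sources used here. Control Il6 averaged 9.44 at 4 weeks and was not well above background at 8 weeks, at least 9.79-fold higher in the 4-week controls, where the 8-week value is bounded by the dimmest probes well above background or the probe's own level. Il6 in DEP averaged 7.35 at 4 weeks, at least 2.37-fold above its 8-week bound. So Il6 was well above background in both channels of the 4-week arrays and in neither of the 8-week arrays.

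The control levels of the other genes that passed at 4 weeks were also higher on the 4-week slide. Within a slide, the median standard deviation of these scaled levels over tested probes was 0.11 at 4 and 0.072 at 8 weeks in control. In DEP it was 0.128 and 0.109. The share of all probes without overlap between the slides is not given here. Socs3 averaged 9.79 in 4-week and 8.16 in 8-week control, a 3.09-fold difference, and its DEP levels averaged 9.23 and 8.52, a 1.64-fold difference, with no overlap in either channel. Il1b averaged 7.57 and 6.74 in control, 1.78-fold, with no overlap, whereas its DEP levels of 6.67 and 6.71 overlapped. Nfkbia averaged 11.42 and 10.64 in control, 1.72-fold, and Il1r1 7.48 and 6.91, 1.48-fold, again without overlap in control and with overlap in DEP. Il6st averaged 9.10 and 8.56 in control, 1.46-fold, and 8.79 and 8.41 in DEP, 1.31-fold, without overlap in either channel. Il6ra, which did not pass, showed no such step. Its control levels averaged 8.49 and 8.48 and its DEP levels 8.69 and 8.67, overlapping in both channels.

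**Figure D3:**
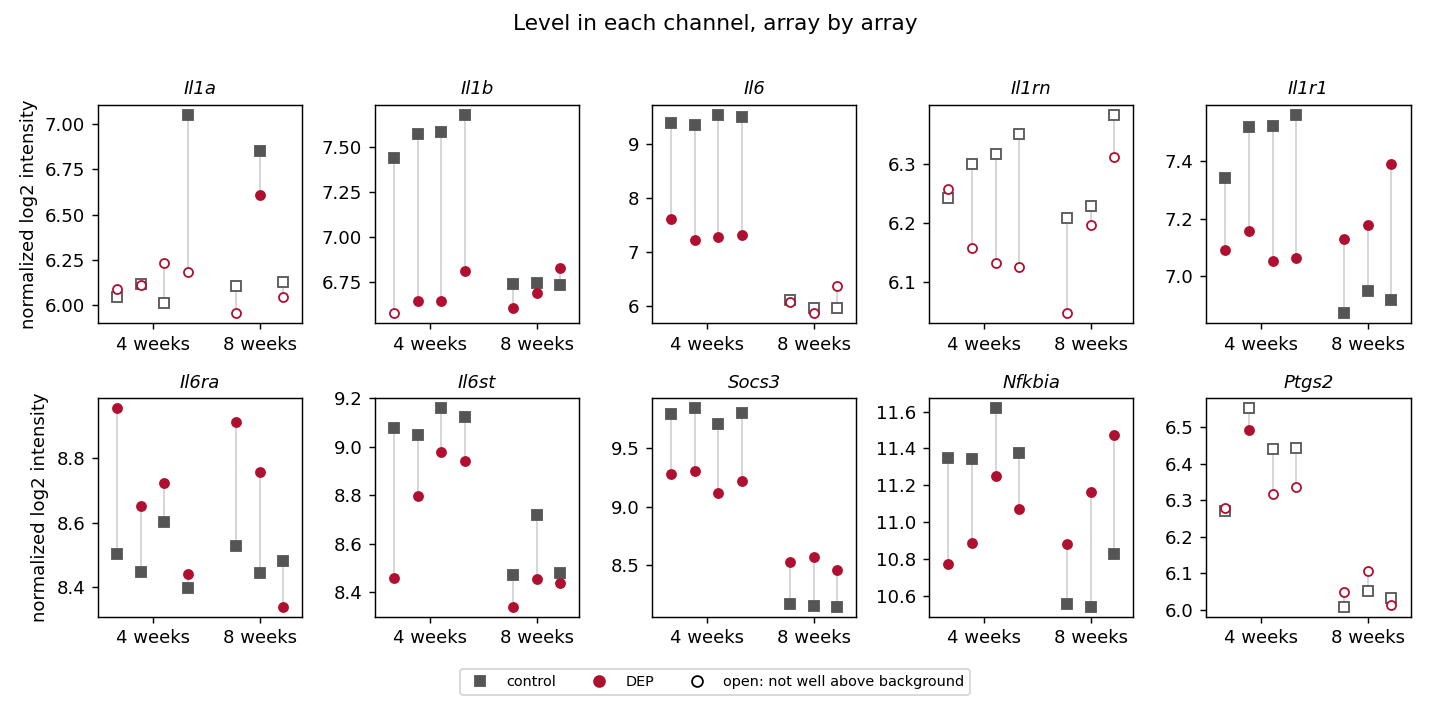
Normalized log2 intensity (y axis, scaled for each gene) of control (grey squares) and DEP (red circles) on each array, with the 4-week arrays on the left and the 8-week arrays on the right of each panel, a line joining the channels of 1 array and open symbols for channels not well above background. Control Il6 averages 9.44 on the 4-week arrays and 6.01 on the 8-week arrays, and control Socs3 9.79 and 8.16, whereas Il6ra is alike at both times.

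The other genes of these pathways were counted in 5 lists. Among genes that IL-1 or IL-6 induces, 14 had a tested probe, and at 4 weeks 8 were lower, 2 higher and 4 not past the test, with a median of -0.31. For this and the lists that follow, the shares over all tested probes were 16.5% lower and 20.7% higher at 4 weeks, and 17.5% lower and 18.9% higher at 8 weeks. Junb, a subunit of the AP-1 factor, was at -1.62 and did not pass (adjusted p = 0.173), with 1 array far below the others, at -5.70. Cxcl1, a neutrophil chemokine, was lowest at -2.05 (range over arrays -2.14 to -1.82, limma adjusted p = 1.92e-06). Among the genes that passed, Cebpd, a transcription factor of the acute phase, came next at -1.56 (-1.63 to -1.46, adjusted p = 3.35e-06). Saa3, an acute phase protein, was at -1.18 (adjusted p = 5.63e-06) with its DEP channel well above background on 1 of 4 arrays, and the protease inhibitor Timp1 was at -1.10 (adjusted p = 6.87e-06). At 8 weeks 1 gene of this list was lower, 3 higher and 10 not past the test, with a median of 0.03. Saa1, whose sequence is close to that of Saa2 so that their probes may share signal, was at 0.57 (adjusted p = 0.00108), Cebpd at 0.24 (adjusted p = 0.0241) and Ccl2, a monocyte chemokine, at 0.17 (adjusted p = 0.0273), while the kinase Pim1 was lower at -0.28 (adjusted p = 0.0268). The control channel of Ccl2 was well above background on 1 of the 3 arrays. Cxcl1 did not pass, at 0.09 (adjusted p = 0.396). Under median centring the 8-week direction of the list turned, with 5 lower, 2 higher and a median of -0.07.

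The NF-kB list, of subunits, kinases and feedback inhibitors, had 15 tested genes. At 4 weeks 8 were lower, 1 higher and 6 not past the test, with a median of -0.36, beside 16.5% lower and 20.7% higher over all probes. Bcl3, a nuclear IkB protein, was at -1.22 (-1.33 to -1.10 over arrays, limma adjusted p = 6.72e-06), Chuk, the kinase IKK alpha, at -0.59 (adjusted p = 0.000475), Tnfaip3, the inhibitor A20, at -0.53 (adjusted p = 0.0013) and the subunit Relb at -0.46 (adjusted p = 0.000975). At 8 weeks 5 were lower, 2 higher and 8 not past the test, with a median of -0.10, beside 17.5% lower and 18.9% higher over all probes. Dimmer probes of Relb and Tnip1 had the same signs at both times. Tnip1, a partner of A20, was at -1.25 (-1.31 to -1.21, adjusted p = 1.7e-05) and Chuk at -0.54 (adjusted p = 0.00125), while Dusp1, a phosphatase that ends MAP kinase signalling, was at 0.66 (adjusted p = 0.0103) and Relb at 0.53 (adjusted p = 0.000894). Relb was thus lower at 4 and higher at 8 weeks, a difference of 0.99 (limma adjusted p = 0.000273). Nfkbia, Socs3 and Il1r1 had the same directions in the main fit. At 8 weeks, however, Nfkbia and Socs3 did not pass under median centring, and Il1r1 did not pass without replicate 3. For Chuk the difference of 0.04 did not pass (adjusted p = 0.769).

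Of 17 other IL-1 family, receptor and adaptor genes, 5 were lower, 2 higher and 10 not past the test at 4 weeks, with a median of -0.05, where 37.2% of all probes passed. Irak2, a kinase downstream of the IL-1 receptor, was higher at 0.84 (limma adjusted p = 0.000372), whereas caspase 1 (Casp1) was at -0.58 (adjusted p = 0.000437), the adaptor Myd88 at -0.42 (adjusted p = 0.000602) and Tollip, an inhibitor of IL-1 signalling, at 0.23 (adjusted p = 0.0184). A dimmer probe for Irak2 gave -0.11 at 4 weeks (adjusted p = 0.246) and -0.13 at 8 weeks (adjusted p = 0.247), so the probes of this gene disagreed. At 8 weeks 2 were lower and 3 higher of 17 (6 lower and 1 higher under median centring), where 36.4% of all probes passed. The higher ones were the inflammasome sensor Nlrp3 at 0.49 (adjusted p = 0.0193), Irak2 at 0.45 (adjusted p = 0.0121) and the inflammasome adaptor Pycard at 0.29 (adjusted p = 0.0165), with the inhibitory receptor Sigirr at -0.37 (adjusted p = 0.00877). Nlrp3 was well above background in DEP on 2 and in control on 1 of the 3 arrays. Of 17 other genes of the gp130 and JAK-STAT list with a ratio at 4 weeks, 2 were lower, 0 higher and 15 not past the test, with a median of -0.06, again beside 37.2% of all probes. Those were Osmr, the oncostatin M receptor, at -0.44 (adjusted p = 0.00058) and the IL-11 receptor Il11ra1 at -0.23 (adjusted p = 0.0134). At 8 weeks 1 of 18 was lower and 4 were higher (10 lower and 4 higher under median centring), beside 36.4% of all probes. Il11ra1 was at 0.65 (adjusted p = 0.000209) and its ligand Il11 at 0.42 (adjusted p = 0.00494), Socs1, a relative of Socs3, at 0.36 (adjusted p = 0.0157) and Cntf at -0.33 (adjusted p = 0.00784). Stat3, the factor that IL-6 activates, did not pass at 4 weeks (0.11, adjusted p = 0.137) or 8 weeks (0.03, adjusted p = 0.715).

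Beside Ptgs2, 9 prostaglandin genes were tested. At 4 weeks Ptges, the inducible prostaglandin E synthase, was at 0.54 (limma adjusted p = 0.00077), and Hpgd, which degrades prostaglandins, at -0.46 (adjusted p = 0.00423), with Ptges3 at -0.38 (adjusted p = 0.00679) and 6 genes not past the test. The probes disagreed for Ptges, where a dimmer one gave -0.01 (adjusted p = 0.935), and for Ptges3, where one of the others gave 0.35 (adjusted p = 0.00406). At 8 weeks Ptges2 was at -0.52 (adjusted p = 0.00147) and Hpgd at 0.34 (adjusted p = 0.0276), and 7 did not pass, Ptges among them, although its dimmer probe gave 0.39 (adjusted p = 0.00334). Of the 9 genes, 1 was lower and 1 higher (4 lower and 0 higher under median centring).

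**Figure D4:**
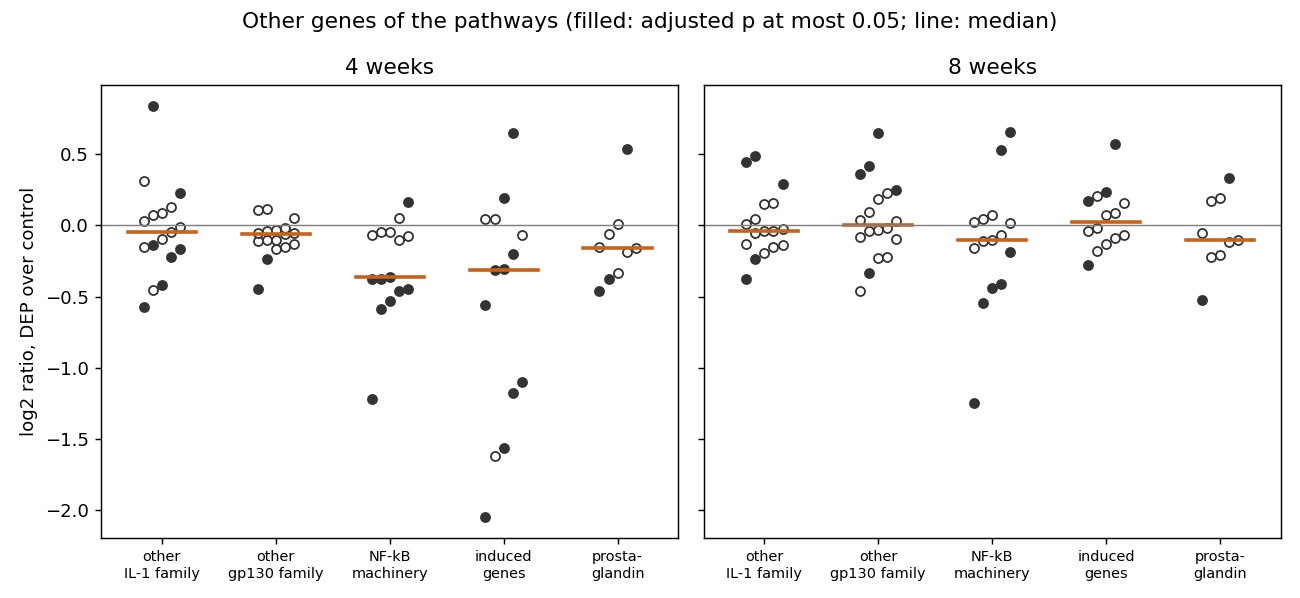
Mean log2 ratio of DEP over control (y axis) of every compared gene in the 5 pathway lists (x axis), at 4 weeks (left) and 8 weeks (right). Filled points passed at an adjusted p of at most 0.05 and the line is the list's median, at -0.36 for the NF-kB list and -0.31 for the induced genes at 4 weeks and -0.10 and 0.03 at 8 weeks.

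Markers of some cell types changed between the exposure times in the direction of these ratios, and those of others in the opposite direction or little. Over all tested probes 16.5% were lower and 20.7% higher at 4 weeks, and 17.5% lower and 18.9% higher at 8 weeks. At 4 weeks 8 of 9 squamous epithelium markers were lower in DEP, with a median of -0.85 and summed levels of 4317 to 4781 in DEP against 7767 to 8335 in control, and 0 markers were at background in both channels. All 5 fibroblast markers were lower, with a median of -0.44 and sums of 48960 to 54830 against 59450 to 72300. Of 7 markers of mature olfactory neurons 5 were higher and 0 lower, with a median of 0.44 and sums of 129400 to 147200 against 69440 to 84960. At 8 weeks 2 squamous markers were lower and 4 higher (sums of 6289 to 8102 against 6123 to 6851). Their median stayed below 0, at -0.13, and under median centring 4 were lower and 2 higher, with a median of -0.04. Of the 5 fibroblast markers 2 were higher and 0 lower at 8 weeks (1 and 1 under median centring, sums of 74470 to 81840 against 62030 to 63590), and 6 of 7 olfactory neuron markers were lower (median -0.46, sums of 88290 to 90570 against 115100 to 132900).

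B cell markers ran in the direction of Il1r1, Socs3 and Nfkbia. Of 3 tested, 2 were lower and 0 higher at 4 weeks (median -0.29, sums of 318.2 to 347.3 in DEP against 387.4 to 422.5 in control), and 3 were higher at 8 weeks (median 0.43, sums of 485.7 to 513 against 354.3 to 357.7), with Cd79a failing the filter on dim probes. Of the 3 sustentacular markers, 3 were higher at 4 weeks (median 0.32, sums of 16650 to 19250 against 14420 to 15870), and 2 were lower and 1 higher at 8 weeks (median -0.43, sums of 26710 to 29290 against 32400 to 36950). Of 4 basal epithelium markers, 1 was lower and 2 higher at 4 weeks, and 3 higher at 8 weeks (medians 0.42 and 0.41). Of 4 ciliated cell markers, 2 were higher at each time (medians 0.22 and 0.27). Under median centring 2 of them were lower and 1 higher at 8 weeks. Of 3 T cell markers with a ratio at 4 weeks, 1 was lower and 1 higher, and 2 of 4 were higher at 8 weeks (medians 0.26 and 0.32). Endothelial medians were 0.09 and 0.17.

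Neutrophil markers were mostly lower at both times. Of 11 tested, 7 were lower and 1 higher at 4 weeks (median -0.62), and 7 were lower and 2 higher at 8 weeks (median -0.76), while their summed levels overlapped at 4 weeks, at 36270 to 43730 in DEP and 38000 to 38810 in control, and were 42630 to 48040 and 40320 to 42270 at 8 weeks. The neutrophil marker Mmp8 failed the filter on dim probes, and Ly6g had no named probe. Of 11 tested macrophage and monocyte markers, 3 were lower and 2 higher at 4 weeks, and 1 lower and 3 higher at 8 weeks (5 lower and 2 higher under median centring), and the sums were 12360 to 15100 in DEP against 10420 to 11250 in control at 4 weeks and 15580 to 20700 against 12440 to 13920 at 8 weeks. The part of these markers' cell types in the ratios of Il6, Il1b, Il1r1, Socs3 and Nfkbia was not tested.

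The genes whose log2 ratios ran most like those of the ligands over the 7 arrays were picked from 15492 genes by Pearson's r, as a description of arrays that fall into 2 slides. For Il1b they were Gm14743 and Ifrd1 (r = 0.999 each) and Chst3, Mt4 and Tmigd1 (r = 0.998 each). For Il6, where 3 of the 7 points were at background, they were Fosl2 (r = 0.999), Scamp3 (r = 0.998) and Plbd1, Postn and Ap3s1 (r = 0.997 each). A high r here says only that a gene stepped between the slides as the ligand did. Mt4 had mean ratios of -1.82 at 4 and 0.81 at 8 weeks, whereas Gm14743 had -0.16 and 1.92.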

How the data were processed

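Gene expression was measured on 7 Agilent 4x44K V2 mouse arrays, each with DEP RNA in Cy5 and control RNA in Cy3. The deposited files hold scanner intensity values per spot, quantified by the authors with Agilent Feature Extraction (version 10.10.1.1 per the file headers) and not normalized between arrays. The files' median signals, background signals, detection flags and processed signals were used. Signals were background-corrected with normexp (offset 50), fitted without spots marked as background outliers, because on all spots the fitted background mean of 4-week replicate 2 fell to -614.5 and -286.5, against -11.7 and -10.3. Loess followed (span 0.3, 4 iterations, control spots at weight 0) in limma 3.58.1 on R 4.3.3, and, once outlier spots were left out, the spots of each probe were averaged. Probes were tested if 3 or more of the 7 arrays showed them well above background in DEP or in control. The test used lmFit and eBayes in 1 fit of all arrays with 1 mean per exposure time, with Benjamini-Hochberg adjustment over 25123 probes and calls at an adjusted p of at most 0.05. A probe with several spots counted as well above background when at least 0.5 of its usable spots were. Scripts were tested on simulated data.

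Genes were named through RefSeq accessions (GRCm38.p6), which gave 28330 of 39429 probes a name, and a gene's value is that of its brightest tested probe. Channel levels were log2 intensities after loess and Aquantile. At most 4 genes per pathway list and time were named, those past the threshold with the largest ratio, and at most 2 that did not pass. The genes and lists were chosen with earlier results of these data known. The alternatives were the background fit on all spots, an offset of 10, median centring, processed signals, other filters, fits per exposure time, leaving out each array, a replicate block and the methods' t-test. The precision is limited by the number of arrays.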

Additional observations from a re-analysis of the deposited data

Results flagged for a closer look

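The log2 ratio of Il6st at 4 weeks was -0.62 on replicate 1, far from the other 3 arrays by Dixon's ratio (0.841), a distance that chance gives in about 1 in 20 groups. The ratios of DEP over control differed between the exposure times by the test of the difference for Il1b (0.87), Il1r1 (0.71), Nfkbia (0.96) and Socs3 (0.91, all on the log2 scale at 8 weeks minus 4 weeks). Each exposure time lay on its own slide, so time cannot be told apart from slide in these differences.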

How the results depend on the processing

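Across the alternatives for single genes, 271 values kept direction and side of the threshold, 5 changed sign, 3 newly passed and 9 no longer passed. The number of the 10 genes called at 4 weeks stayed at 6 and at 8 weeks at 3 when each array was left out in turn, and at 5 for the difference, Il6 included. At 8 weeks the genes were not the same, since without replicate 3 Il1r1 no longer passed (adjusted p = 0.0605) and Il6ra did (0.0478), and median centring called 2, with 1 higher and 1 lower. Requiring both channels well above background on all arrays left 3 genes called for the difference, since Il1b and Il6 did not meet that filter. By the methods' t-test 1 gene was called at 8 weeks. Leaving out arrays gave 6701 to 9364 probes called at 4 weeks, 5197 to 10126 at 8 weeks and 4538 to 8157 for the difference, the lowest 8-week and difference counts being those without 8-week replicate 2. The background fit on all spots gave 5791 probes at 4 weeks, and the methods' t-test 5034 at 4 weeks and 5631 at 8 weeks. Same-numbered arrays of both times did not deviate together (r = -0.01, -0.01 and 0.02), so the numbers do not pair them. With the replicate number as a block, 5168 probes passed at 8 weeks and 3721 for the difference, and the pairing left Il1r1 at 8 weeks at 0.28 (adjusted p = 0.0993). Median centring changed the split of calls from 5201 higher and 4136 lower to 3767 and 5235 at 4 weeks, from 4736 and 4404 to 2809 and 8308 at 8 weeks, and from 3534 and 4053 to 2021 and 5214 for the difference. Processed signals gave 7651 higher and 3538 lower at 4 weeks, with array medians up to 0.17. Over the tested probes, array medians ranged from -0.14 to 0.04 under median centring. The sign changes were in values near 0. For Il6ra these were the difference between times with the background fit on all spots (0), without 4-week replicate 1 (0.059) or without 8-week replicate 3 (0.141), with a range of -0.122 to 0.141 over the arrays left out, and the 8-week ratio under median centring (-0.067). Il1b at 8 weeks was 0.021 without 8-week replicate 1, with a range of -0.093 to 0.021. The cause was not tested. Signals near background limit Il1a, Il1rn, Ptgs2 and, at 8 weeks, Il6.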
